A study of Homo with 4 samples.

Results

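The 40 genes described here belong to the amino acid response that the transcription factor ATF4 governs, together with the cytosolic aminoacyl-tRNA synthetases. They were taken as a list of symbols, by a rule that uses no measured value but with earlier results of these data known, and were found among the 20263 genes of the deposited table by their GRCh38 position. They comprise 10 stress and transcription factors, 9 enzymes of amino acid and one-carbon synthesis, 5 amino acid transporters and 16 synthetases. RNA-seq had been run on H1299, a human non-small cell lung cancer line grown in RPMI medium with 10% fetal bovine serum. The cells were infected with lentivirus carrying a control short hairpin RNA (shCtrl, 2 libraries) or one against IGF2BP3 (shIGF2BP3, 2 libraries), an RNA-binding protein that reads m6A-marked transcripts. The labels give the shCtrl genotype as WT and the other as IGF2BP3 knockdown. They do not say which hairpin or hairpins the shIGF2BP3 libraries carry, and nothing says that the biological replicates came from separate infections. The p-values compare the group difference with the spread between these libraries, partly pooled across genes. Whether that spread includes separate infections is not known. The deposited table numbers the knockdown libraries 2 and 3 where the labels number them 1 and 2, so whether they share a hairpin cannot be told from these sources. The libraries held 29709686 to 34817513 counts, of which mitochondrial genes took 9.11% and 13.43% in shCtrl and 11.42% and 17.02% in shIGF2BP3. KRT8, KRT18 and vimentin were abundant, 3 of 5 epithelial markers (KRT19, EPCAM and CDH1) and all 4 lung lineage markers (NKX2-1, SFTPB, SFTPC and NAPSA) were under 1 FPKM in the libraries, and no endothelial or fibroblast marker reached 1 FPKM. Of 3 leukocyte markers, PTPRC and CD3E were under 1 FPKM and CD68, a lysosomal protein, measured 22.66 and 20.91 FPKM in shCtrl and 23.72 and 20.9 FPKM in shIGF2BP3.

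When amino acids run short, uncharged tRNA activates the kinase GCN2, which phosphorylates the initiation factor eIF2alpha. General translation falls while the ATF4 mRNA, held back by upstream reading frames, is translated better. ATF4 then raises the transcription of genes that make amino acids, import them and attach them to tRNA, and of DDIT3, TRIB3 and CHAC1, which belong to the later stress phase. ATF4 activity is therefore set largely by translation, and its mRNA level is only one of its inputs.

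IGF2BP3, the gene targeted by the hairpin, measured 41.15 and 32.94 CPM (counts divided by the library size after TMM scaling) in the shCtrl libraries and 26.42 and 24.76 CPM in the shIGF2BP3 libraries. The 2 groups did not overlap. The remaining level was 69.1% of control, a log2 fold change of -0.53 (SE 0.17), with adjusted p = 0.472 in edgeR's quasi-likelihood test. The change was 1.45-fold, just short of the 1.5-fold used below to call a gene. Every change below was therefore measured at this depth of knockdown.

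Most of the pathway had fitted changes under 1.5-fold. A gene was called when it changed at least 1.5-fold with an unadjusted p of at most 0.05. Of the 40 members, all 40 passed the filter on low counts, 3 were called lower (DDIT4, PSPH and WARS1) and 0 were called higher. Among all 13379 genes tested, 2.78% were called lower and 2.54% higher, 5.32% in either direction. Another 3 members, ASNS, SLC38A2 and VARS1, had p at or below 0.05 with a change under 1.5-fold, which made 6 of 40 against a background of 10.5%. No member had an adjusted p under 0.05 (0% of all genes did) in edgeR, whereas DESeq2 gave DDIT4 and WARS1 adjusted p-values of 0.0141 and 0.0228 (1.42% of the genes to which it gave an adjusted p were under 0.05). The 40 members divided into 21 higher and 19 lower, with a median log2 fold change of 0.02 beside -0.002 over all genes. The sign of that median depended on the scaling, and it was -0.06 when library totals replaced TMM, where the median of all genes was -0.08. In 13 members the 2 knockdown values both lay under the 2 control values (23.5% of all genes), in 11 both lay over them (23.3%), and in 16 the groups overlapped. The libraries were made from bulk RNA, so fewer expressing cells and less RNA per cell cannot be told apart.

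**Figure D1:**
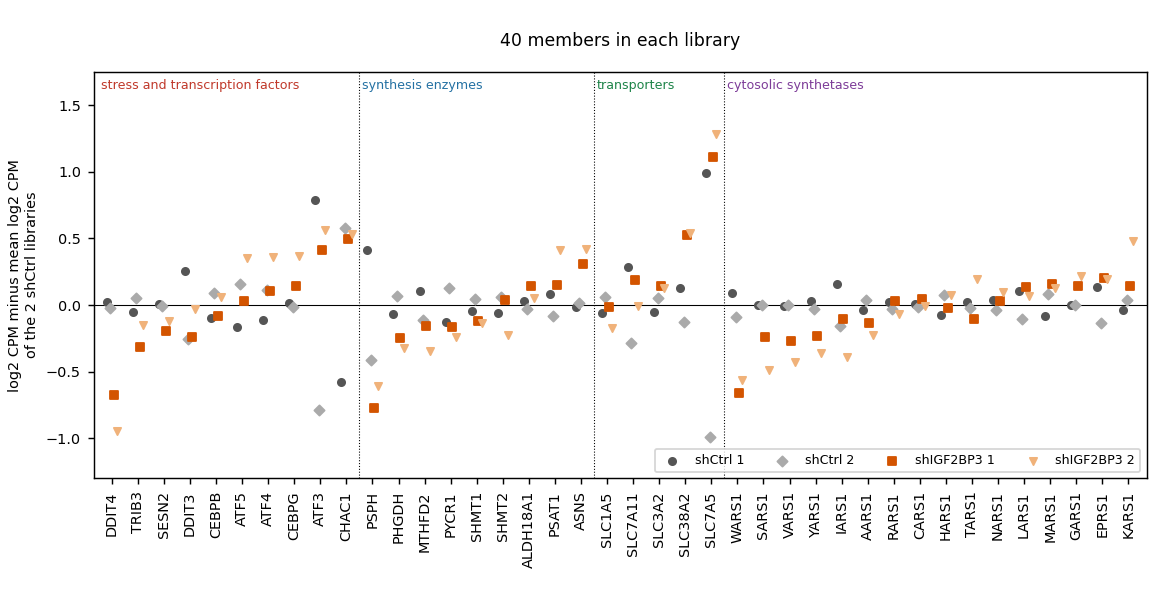
Each member in each of the 4 libraries, as log2 CPM minus the mean of the 2 shCtrl libraries, grouped by role and ordered by fold change. DDIT4, PSPH and WARS1 lie below both controls in both knockdown libraries, and SLC7A5, ATF3 and CHAC1 show the widest distance between the 2 shCtrl libraries.

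Among the stress and transcription factors, 1 of 10 was called, DDIT4, and the median log2 fold change was 0.09. ATF4, the hub of the pathway, measured 406 and 472.5 CPM in shCtrl and 471.7 and 561.6 CPM in shIGF2BP3. The groups overlapped, since the second control lay just above the first knockdown library, and the log2 fold change was 0.23 (SE 0.16, adjusted p = 0.59). On summed FPKM values its difference was -0.01 in limma (log2 scale, pseudocount 1), so no direction is given for ATF4 mRNA.

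DDIT4, also called REDD1, restrains mTORC1 under energy, oxygen and amino acid stress. It lies on chromosome 10 at 72273920 to 72276036 on the plus strand and has 1 transcript in the table. It measured 31.2 and 30.37 CPM in shCtrl and 19.27 and 15.98 CPM in shIGF2BP3. The controls were nearly equal and both knockdown libraries were well below them. The level was 57.3% of control, a log2 fold change of -0.80 (SE 0.17, 95% interval -1.23 to -0.38, adjusted p = 0.472). The unadjusted p in the edgeR test was 0.00407. DDIT4 was called under 14 of 14 alternative settings, and leaving out 1 library at a time gave log2 fold changes of -0.94 to -0.68.

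Of the later stress genes, DDIT3 and TRIB3 were not called, and CHAC1 is given below with ATF3. DDIT3, which encodes the pro-apoptotic factor CHOP, measured 28.33 and 19.95 CPM in shCtrl and 20.14 and 23.28 CPM in shIGF2BP3, so the knockdown libraries fell between the controls. Its log2 fold change was -0.15 (SE 0.22, adjusted p = 0.798). TRIB3, a pseudokinase that restrains ATF4 and AKT, measured 21.94 and 23.58 CPM in shCtrl and 18.31 and 20.48 CPM in shIGF2BP3, with a log2 fold change of -0.23 (SE 0.16, adjusted p = 0.596). Both of its knockdown values were below both controls, by less than the test could separate.

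SESN2, a leucine sensor upstream of mTORC1, showed the same order on a smaller scale, with 17.13 and 16.88 CPM in shCtrl and 14.83 and 15.65 CPM in shIGF2BP3. Its log2 fold change was -0.16 (SE 0.16, adjusted p = 0.713). CEBPG, which forms dimers with ATF4, was the only factor with both knockdown libraries above both controls, and its log2 fold change was 0.26 (SE 0.14, adjusted p = 0.526). CEBPB and ATF5 overlapped between the groups, with log2 fold changes of -0.01 and 0.19.

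In ATF3 and CHAC1 the 2 controls disagreed. ATF3, an early stress factor, measured 6.09 and 2.04 CPM in shCtrl and 4.69 and 5.19 CPM in shIGF2BP3. Its log2 fold change was 0.28 (SE 0.51) with both controls, 1.28 without shCtrl replicate 1 and -0.30 without shCtrl replicate 2. CHAC1, which degrades glutathione, measured 4.84 and 10.8 CPM in shCtrl and 10.2 and 10.46 CPM in shIGF2BP3. Its log2 fold change was 0.40 (SE 0.39) with both controls, -0.06 without the first and 1.09 without the second. The control libraries moved in opposite directions for these genes, with ATF3 lower and CHAC1 higher in the second, and no direction is given for either.

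**Figure D2:**
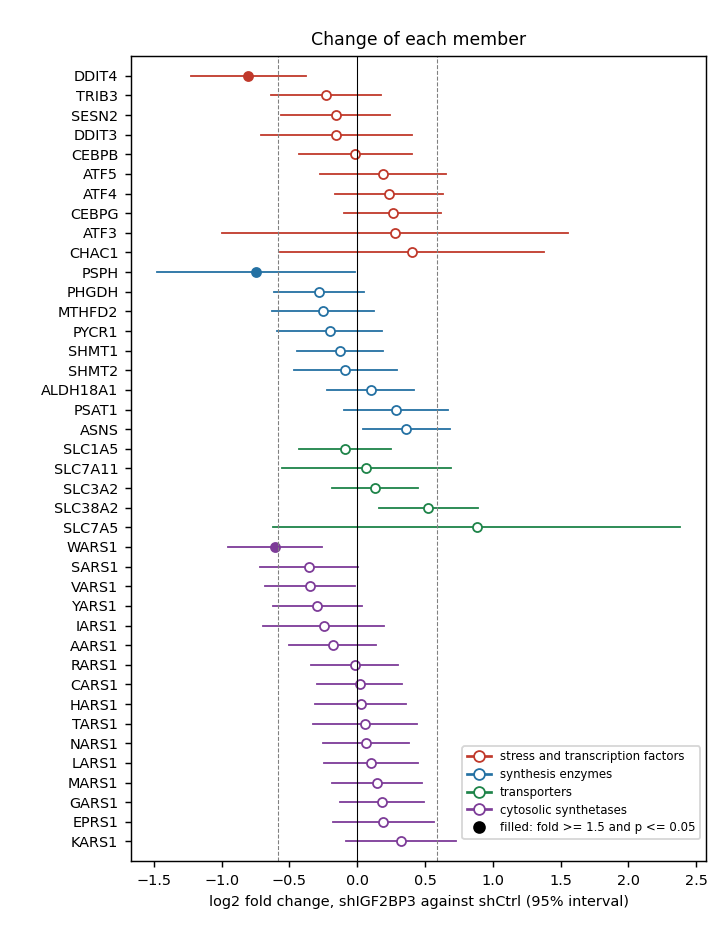
Log2 fold change of each member (points) with its 95% interval (lines), coloured by role, with dashed lines at a 1.5-fold change. The 3 filled points, DDIT4, PSPH and WARS1, are the called members, and the widest intervals belong to SLC7A5, ATF3 and CHAC1.

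Of the 9 synthesis enzymes 1 was called, and the median of their log2 fold changes was -0.13. In this role 5 enzymes had both knockdown libraries below both controls (23.5% of all genes tested) and 3 had both above (23.3%). The fitted changes of the enzymes of one route differed in sign. In the serine pathway, PHGDH catalyses the committed step, PSAT1 the transamination and PSPH the final dephosphorylation, and their log2 fold changes were -0.28, 0.29 and -0.74.

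PHGDH measured 87.32 and 96.13 CPM in shCtrl and 77.3 and 73.35 CPM in shIGF2BP3, with a log2 fold change of -0.28 (SE 0.13, adjusted p = 0.498). PSAT1 measured 175.3 and 156.6 CPM in shCtrl and 184 and 220.4 CPM in shIGF2BP3, with a log2 fold change of 0.29 (SE 0.15, adjusted p = 0.524). Each gene separated the 2 groups, in opposite directions, and neither passed the test.

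PSPH lies on chromosome 7 at 56011051 to 56051604 on the minus strand. It measured 42.29 and 23.97 CPM in shCtrl and 18.69 and 20.88 CPM in shIGF2BP3. Its log2 fold change was -0.74 (SE 0.29, 95% interval -1.48 to -0.01, adjusted p = 0.472). The unadjusted p in the edgeR test was 0.0473, close to the limit of 0.05. The first control was 1.76 times the second, and without shCtrl replicate 1 the log2 fold change shrank to -0.27 (adjusted p = 0.614). The call held under 9 of 14 alternative settings and was lost with the replicate number as a block, where p lay above the limit at a log2 fold change of -0.69 (adjusted p = 0.453).

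ASNS, asparagine synthetase, is among the best known ATF4 targets. It measured 175.8 and 179.4 CPM in shCtrl and 219.4 and 237.3 CPM in shIGF2BP3. The controls agreed closely and both knockdown libraries were higher, to 128.6% of control, a log2 fold change of 0.36 (SE 0.13, adjusted p = 0.472). That change was under the 1.5-fold limit, and its adjusted p ran from 0.223 to 0.994 under the alternatives.

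The one-carbon enzymes SHMT1, SHMT2 and MTHFD2, which turn serine into folate-bound one-carbon units, had log2 fold changes of -0.13, -0.09 and -0.25. ALDH18A1 and PYCR1, the first and last enzymes of proline synthesis from glutamate, had log2 fold changes of 0.10 and -0.20. None of these 5 genes had an unadjusted p at or under 0.05. SHMT2 alone among the 9 enzymes overlapped between the groups.

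The transporters were called in 0 of 5 cases and had a median log2 fold change of 0.13. In 3 of them, SLC7A5, SLC3A2 and SLC38A2, both knockdown libraries were above both controls (23.3% of all genes tested). SLC38A2, a sodium-coupled importer of small neutral amino acids, measured 325.7 and 272.7 CPM in shCtrl and 428.3 and 432.4 CPM in shIGF2BP3. Its level was 143.8% of control, a log2 fold change of 0.52 (SE 0.15, adjusted p = 0.472), which stopped short of 1.5-fold. Without shCtrl replicate 1 the value was 0.66 and passed the rule.

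SLC7A5, the LAT1 subunit that imports leucine and other large neutral amino acids, had the largest fitted fold change of the 40. It measured 348.7 and 88.01 CPM in shCtrl and 378.9 and 425.4 CPM in shIGF2BP3. The first control was close to the knockdown libraries and the second was 3.96-fold below the first. The log2 fold change was 0.88 with an SE of 0.60 (95% interval -0.62 to 2.38, adjusted p = 0.589). It became 2.20 without shCtrl replicate 1 and 0.21 without shCtrl replicate 2, so a single control library set the value. Of 8995 genes with a mean of at least 10 CPM, 13, counting SLC7A5, lay as far in shCtrl replicate 2 below the lowest of the other 3 libraries.

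SLC3A2, the heavy chain that carries SLC7A5 and SLC7A11 to the membrane, did not share that dip. It measured 236.5 and 255 CPM in shCtrl and 270.8 and 267.9 CPM in shIGF2BP3, a log2 fold change of 0.13 (SE 0.13, adjusted p = 0.699). SLC7A11, the cystine importer, measured 12.79 and 8.65 CPM in shCtrl and 12 and 10.46 CPM in shIGF2BP3, a log2 fold change of 0.07 (SE 0.25, adjusted p = 0.93). SLC1A5, a glutamine carrier, was the lowest of the 5 by fold change, with 210.4 and 229.1 CPM in shCtrl, 217.3 and 195.2 CPM in shIGF2BP3, and a log2 fold change of -0.09 (SE 0.14, adjusted p = 0.805). SLC7A11 and SLC1A5 overlapped between the groups.

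**Figure D3:**
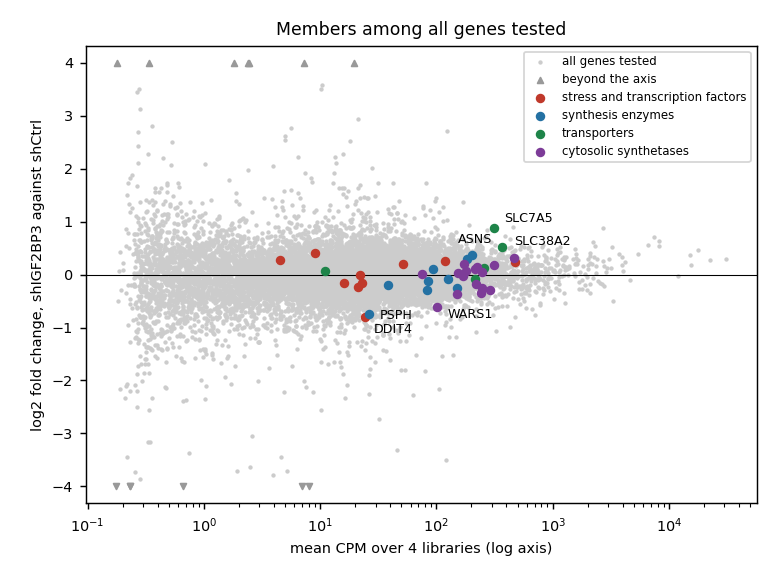
Log2 fold change against mean CPM (log axis) for all 13379 genes tested (grey) and the 40 members (coloured by role), with genes beyond a log2 fold change of 4 drawn as triangles at the edge. The members lie within the body of the distribution, DDIT4 and PSPH at its lower side and SLC7A5 at its upper side.

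The 16 cytosolic synthetases charge tRNA with their amino acids. Of these, 1 was called (WARS1), the median log2 fold change was 0.02, and the other 15 changed by less than 1.5-fold. WARS1, which charges tryptophan and is also induced by interferon gamma, lies on chromosome 14 at 100333788 to 100376805 on the minus strand. It measured 130.1 and 115 CPM in shCtrl and 77.56 and 83.01 CPM in shIGF2BP3. The groups were clearly apart, at 65.5% of control, with a log2 fold change of -0.61 (SE 0.14, 95% interval -0.96 to -0.26, adjusted p = 0.472). The unadjusted p in the edgeR test was 0.00567. The call held under 12 of 14 alternatives, and without shCtrl replicate 1 or shIGF2BP3 replicate 1 the change, -0.52 or -0.55, was just under 1.5-fold.

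VARS1, SARS1, YARS1 and AARS1 also had both knockdown libraries below both controls. VARS1, for valine, measured 271.1 and 272.5 CPM in shCtrl and 225.7 and 201.8 CPM in shIGF2BP3, a log2 fold change of -0.35 (SE 0.13, adjusted p = 0.472). SARS1, YARS1 and AARS1, for serine, tyrosine and alanine, had log2 fold changes of -0.36, -0.29 and -0.18, with adjusted p-values of 0.475, 0.483 and 0.601.

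KARS1, for lysine, stood at the other end. It measured 400.3 and 423.2 CPM in shCtrl and 453.9 and 574.1 CPM in shIGF2BP3, a log2 fold change of 0.32 (SE 0.16, adjusted p = 0.515). EPRS1, GARS1 and MARS1 also had both knockdown libraries above both controls, with log2 fold changes of 0.19, 0.18 and 0.14. The remaining 7 synthetases overlapped between the groups, and their log2 fold changes ran from -0.25 for IARS1 to 0.10 for LARS1.

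Some cytosolic synthetases sit in the multisynthetase complex, a stable assembly held by scaffold proteins. This split was chosen after the values were seen and is given as a description only. For the 6 members in the complex the median log2 fold change was 0.12, with 3 above and 0 below both controls. For the 10 outside it was -0.08, with 1 above and 5 below. Among all genes tested, 23.3% lay above and 23.5% below. With related synthetases added, 4 of 8 in the complex lay above and 0 below. Outside it, 2 of 12 lay above and 6 below.

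Levels between genes were compared in FPKM, which divides by transcript length, summed over the transcripts of a gene. ATF4 was the most abundant member, with a mean of 235.2 FPKM in shCtrl and 230.7 FPKM in shIGF2BP3, followed by KARS1 at 185.1 and SLC3A2 at 108.6 FPKM in shCtrl. SLC7A11 was the least abundant, at 1.003 FPKM in shCtrl and 1.008 FPKM in shIGF2BP3, below ATF3 at 1.95 FPKM in shCtrl. The synthetases ranged from 26.05 FPKM (CARS1) to 185.1 FPKM with a median of 58.9, whereas the stress factors other than ATF4 lay between 1.95 and 23.42 FPKM. In shCtrl the neighbours SLC3A2 and SLC1A5, at 108.6 and 103.1 FPKM, were closer together than several members were between replicates.

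**Figure D4:**
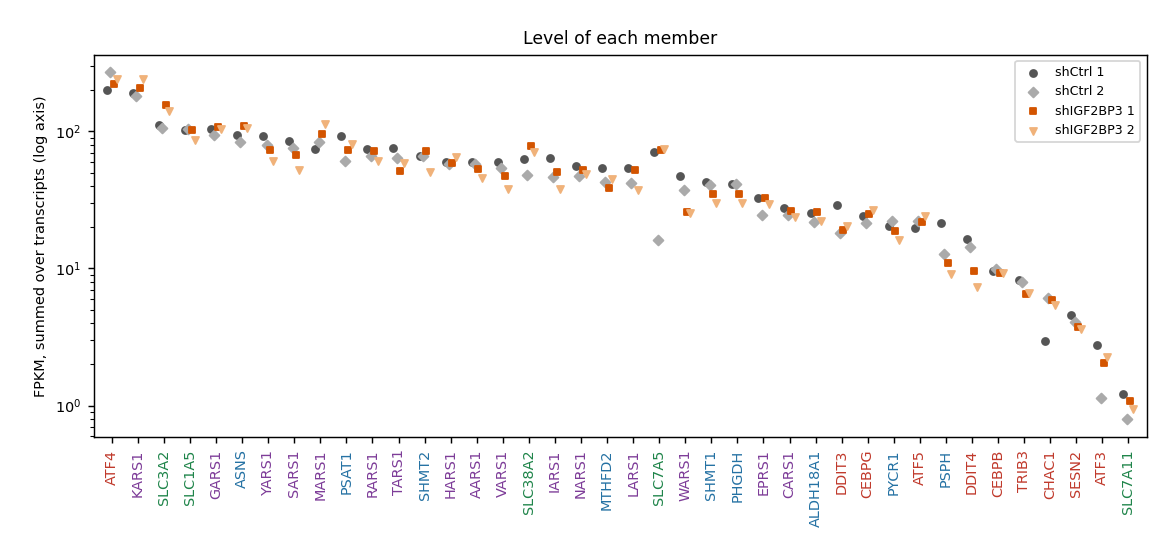
FPKM of each member in each library (log axis, summed over transcripts), ordered by the mean in shCtrl, with symbols coloured by role. ATF4, KARS1 and several transporters and synthetases lead, and SESN2, ATF3 and SLC7A11 close the order at or below 5 FPKM.

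Replicates agreed closely for most members. The median fold between replicates was 1.1 in shCtrl and 1.1 in shIGF2BP3 for the members, and 1.17 and 1.15 for all genes tested. In shCtrl, 3 members (SLC7A5, ATF3 and CHAC1), or 7.5%, differed at least 2-fold between replicates, beside 5.79% of all genes tested. In shIGF2BP3 0 members did, beside 7.22% of all genes tested.

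The gene sums concealed larger differences between transcripts. Of the 37 members with at least 2 listed transcripts, 26 had the same leading transcript in all 4 libraries. In 3 members a transcript's share of the gene's counts lay at least 30 percentage points apart between the groups (3.89% of all tested genes with at least 2 transcripts). In SHMT1, ENST00000352886 held 44.1% and 42.6% of counts in shCtrl and 1.4% and 1.5% in shIGF2BP3, while ENST00000316694 held 3.4% and 2.3% against 63.6% and 73.4%. In SLC3A2, ENST00000377890 held 73.7% and 76.8% in shCtrl and 1.1% and 0.8% in shIGF2BP3, while ENST00000536981 held 1.9% and 1.3% against 72.1% and 80.9%. These shares were close between replicates and far apart between groups, although the total of either gene hardly differed. In the third, TARS1, ENST00000265112 held 43.1% and 47.2% in shCtrl and 86.8% and 81.7% in shIGF2BP3.

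The SLC3A2 transcripts differ in their listed start, at 62856102 for ENST00000377890 and 62881725 for ENST00000536981 on the plus strand of chromosome 11. The SHMT1 transcripts span almost the same interval of chromosome 17 on the minus strand, 18327860 to 18363563 and 18327873 to 18363487.

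Shares were also unstable within a group. In 11 of the 37 members a transcript share differed by at least 30 points between replicates (32.0% of all such genes). In ATF4, ENST00000396680 held 13.2% and 94.7% of counts in shCtrl and 18.7% and 15.8% in shIGF2BP3. In LARS1, ENST00000394434 held 9.7% and 10.9% in shCtrl, 10.5% in the first knockdown library and 99.7% in the second. These values are estimates that divide reads shared by transcripts, and the tool that made the division is not given in the sources used here. The part of that division in the SHMT1, SLC3A2 and TARS1 shifts was not tested.

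**Figure D5:**
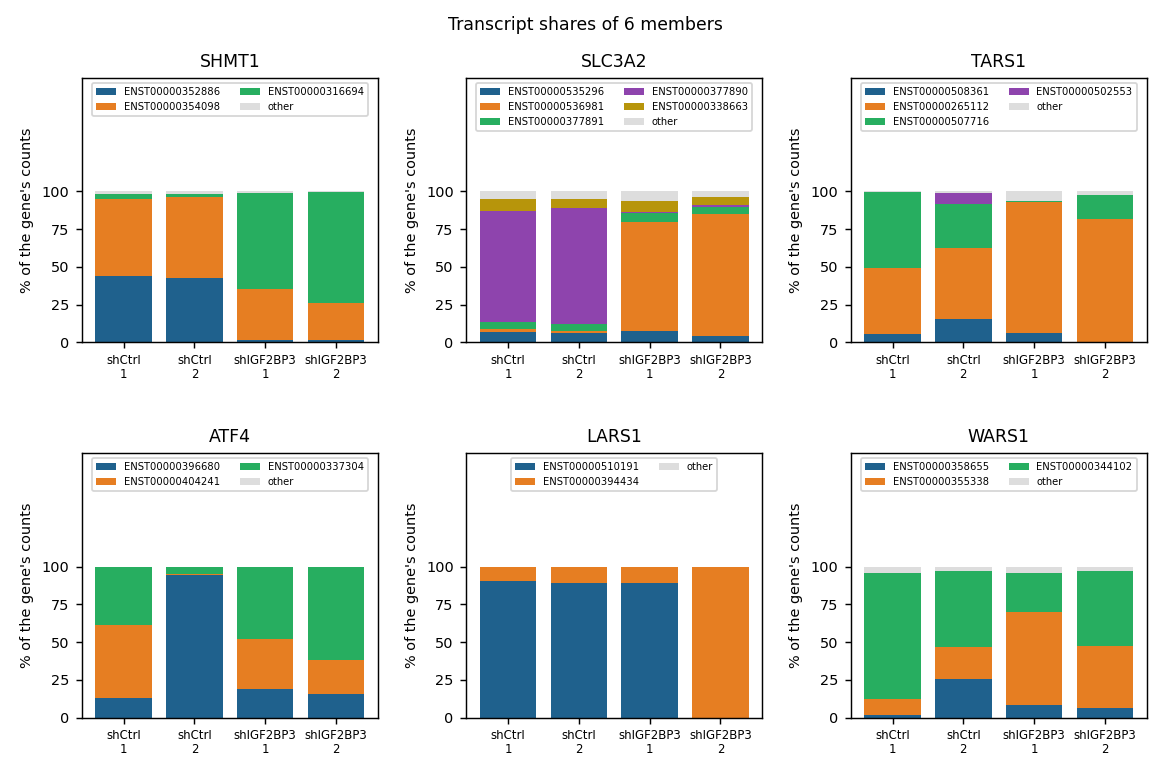
Share of each gene's counts assigned to its transcripts (bars, % of counts) in the 4 libraries, for 6 members. SHMT1 and SLC3A2 split by group, with ENST00000377890 of SLC3A2 at 73.7% and 76.8% in shCtrl, whereas ATF4 and LARS1 each have 1 library unlike the other 3.

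FPKM depends on transcript length, so FPKM sums depend on these assignments. SLC3A2 had a log2 difference of 0.45 between the mean FPKM of the groups, against 0.13 in counts, and MARS1 had 0.40 against 0.14. The part of the assignments and of the scaling in these differences was not tested. The count values are therefore the ones reported. On opposite strands, MARS1 overlaps DDIT3, and the called member WARS1 overlaps WDR25. On the same strand, HARS1 overlaps DND1 and PYCR1 overlaps MYADML2. The strand setting of the counting is not given in the sources used here, so reads in those overlaps could not be assigned with certainty, and in all 10 of the 40 members overlap another gene.

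In 6 lists of genes around the pathway, 6 of 86 tested genes were called lower and 0 higher, beside 2.78% and 2.54% of all genes. Of the 13 tested genes of eIF2alpha signalling, 0 were called, with a median log2 fold change of 0.04. They were its kinases, phosphatase subunits and initiation factors, with GCN1, IMPACT, DELE1 and OMA1. GCN2, the amino acid sensor listed as EIF2AK4, had a log2 fold change of -0.14 (SE 0.18, adjusted p = 0.768), and EIF2AK1, the heme-regulated kinase, had 0.39 (SE 0.15, adjusted p = 0.472). None of the 17 mitochondrial synthetases was called. Of these, 13 were lower, with a median of -0.09, where 50.2% of all genes tested were lower. In 10 of the 17 the groups overlapped, and 1 had p at or below 0.05. The 7 other cytosolic synthetases and complex scaffolds gave 0 calls, with the scaffold EEF1E1 at a log2 fold change of 0.39 (adjusted p = 0.472). Of the 21 tested further ATF4 targets, 1 was called lower, HERPUD1, an endoplasmic reticulum degradation factor. It measured 18.09 and 28.98 CPM in shCtrl and 13.15 and 13.69 CPM in shIGF2BP3, a log2 fold change of -0.81 (SE 0.26, adjusted p = 0.472).

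The folate one-carbon enzymes held the most calls of these lists, 4 lower and 0 higher of 16 tested. TYMS, thymidylate synthase, measured 264.2 and 266.1 CPM in shCtrl and 181.9 and 157.3 CPM in shIGF2BP3, a log2 fold change of -0.64 (SE 0.14, adjusted p = 0.472). ALDH1L2, the mitochondrial formyl-folate dehydrogenase, measured 3.83 and 3.84 CPM against 0.985 and 2.36 CPM. AMT, of the glycine cleavage system, rested on 16 and 25 counts against 5 and 1. The median log2 fold change of the list was -0.09. Of the 12 tested other amino acid enzymes, 1 was called lower, ASL, the argininosuccinate lyase, at 69.02 and 67.71 CPM in shCtrl and 47.95 and 35.15 CPM in shIGF2BP3 (log2 fold change -0.72, SE 0.19, adjusted p = 0.472). HERPUD1, TYMS, ALDH1L2, AMT and ASL each had both knockdown libraries below both controls (23.5% of all genes), and their adjusted p-values were 0.472. They are named because they were called lower, so this order adds nothing to their calls.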

How the data were processed

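RNA-seq libraries of H1299 cells (2 shCtrl, 2 shIGF2BP3) were grouped by their titles. The authors deposited estimated counts per Ensembl transcript (whole numbers) and FPKM per transcript on GRCh38. Per the labels, CASAVA, Trimmomatic, HISAT2, bedtools and FastQC were used, while the counting tool, its strand setting and the annotation are not given in the sources used here. Counts and FPKM of 95139 transcripts were summed into 20263 genes, and symbols were given to 18677 by overlap with RefSeq GRCh38.p14 positions (455 as sole mutual overlap, ASNS among them). All 40 members were matched.

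Genes were kept by filterByExpr, and shIGF2BP3 was compared with shCtrl by edgeR 4.0.16 (TMM, quasi-likelihood F test, Benjamini-Hochberg adjustment over 13379 genes) in R 4.3.3. The standard error is the log2 fold change divided by the square root of F. The common biological coefficient of variation was 22.8%. On simulated data, 18 of 52 genes changed 1.5-fold and 58 of 69 changed 2-fold were called, beside 505 unchanged genes in a set of 13379. Replicates differed by more than counting noise (chi-square per degree of freedom 79.1 and 78.6). Alternatives used DESeq2 1.42.0, limma 3.58.1 on log2 FPKM, other scalings and filters, a replicate block and omission of each library. A scaling by library totals without mitochondrial genes was chosen after seeing the data. Promoter and protein sequences were not used here.

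The members, roles and lists were chosen with earlier results of these data known. Values in each library are given for called members, the extremes of each role and 11 core genes, and for called genes of the related lists, some of which are not reported here by name; other genes are given by range, or were named after their values were seen.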

Additional observations from a re-analysis of the deposited data

How the results depend on the processing

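Library totals, FPKM and the omission of a control turned the sign of the members' median log2 fold change, which lay near 0. Library totals gave -0.057. On the log2(FPKM + 1) scale limma gave -0.086, filtered or unfiltered, and a pseudocount of 0.1 gave -0.09. Totals without mitochondrial genes (chosen after seeing the data) gave -0.009; leaving out 1 library at a time gave -0.015 to 0.03. The number of members called lower was 3 in the main analysis and 1 to 3 with 1 library left out, and the number called higher was 0 and became 0 to 3. At a fold change of at least 2, 0 members were called. DESeq2 put 2 members and 1.42% of all genes it adjusted at an adjusted p under 0.05, against 0 in edgeR, where 6 had p at or below 0.05. For IGF2BP3 the log2 fold change passed 1.5-fold at -0.619 under library totals, and on FPKM at -0.6 (pseudocount 1, filtered or unfiltered) and -0.681 (pseudocount 0.1). With 1 library left out it ran from -0.685 to -0.36, the smallest value without shCtrl replicate 1. With the replicate number as a replicate block, 2 members were called lower; deviations of same-numbered libraries correlated at 0.052, so the numbers were taken only as names. Of the values of single members under the alternatives, 518 stayed within their spread or on their side of the limits, 31 moved, 7 fell short of the limits and 4 passed them. The cause was not tested. With 2 libraries a group, 18 of 52 simulated 1.5-fold changes were called. The limit itself leaves out a true 1.5-fold change whose estimate falls below it, whatever the number of libraries. Changes estimated under 1.5-fold cannot be called by the rule. The promoter motif comparison was not run.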
